A study of Rattus norvegicus with 4 samples.

Results

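Of the 35374 loci in the deposited comparison of female and male rat inner medulla, 11574 carry an assembler's identifier and no gene symbol. They were taken as the rows with an assembler's identifier that begins with MSTRG and with a dash in place of a gene name. No measured level entered that choice. The identifier alone does not show that reads built a locus, since 2194 of the 11574 are listed at 0 in both sexes. Another 14816 loci with such an identifier carry a symbol and are called assembled loci with a symbol below. A further 3560 rows have an Ensembl identifier and no symbol. Each unnamed locus has a chromosome, a start and an end in build rn5, and its length was computed as end minus start plus 1. That length is a span on the chromosome with introns included, not a transcript length. Where rows share an interval, it is the span of the common interval, which can hold several named genes. MSTRG.14365, for example, is listed on 320638 bases of chromosome 20 that 18 rows share, Hspa1b and Tnf among them. The place of such a locus within its interval is not given. The starts appear to count from 0, because 6 unnamed loci start at 0 and neighbouring mitochondrial intervals share a boundary base. Lengths may therefore be 1 base too long.

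A transcript assembler joins overlapping reads into candidate transcripts and groups these into loci, whether or not an annotation knows a gene there. Such loci can be extensions of known genes, unspliced RNA, long noncoding RNA, transcribed repeats, or protein-coding genes that the annotation in use lacks. Genes that the annotation lists without a symbol can be among them too. Libraries of total RNA hold all of these, since they are not limited to RNA with a poly(A) tail. The inner medulla, the deepest zone of the kidney, holds the terminal collecting ducts and thin limbs that concentrate urine.

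The groups were female and male Sprague Dawley rats given no agent other than the diet, which held 0.49% NaCl (TD 96208) and was fed for 2 weeks from an age of 14 to 16 weeks. The animals had been bought at 13 to 15 weeks of age. Each sex had 2 libraries, and each library was a pool of RNA from 4 rats, so differences between single animals cannot be seen. Depth was 34552171 to 41945343 read pairs per library. The authors joined both pools of a sex into 1 value, in FPKM (fragments scaled by transcript length and by the number of mapped fragments), so no value here has an SD or an n of its own. The error measure of each sex difference is therefore the q-value in the authors' deposited table, the p-value adjusted over all tested loci, with a call made at a q under 0.05. That test covers the spread between pools as the authors modelled it. In bulk tissue, fewer cells of a type and less RNA per cell cannot be told apart.

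Markers of the tissue were present. Aqp2, the vasopressin-regulated water channel of the collecting duct, had 8463 FPKM in the female pools against 11693 in the male pools. Slc14a2, the urea transporter of the inner medulla, had 229 against 297. Neither gene was called (q of 0.923 and 0.452 from the authors' deposited table). Markers of collecting duct principal cells, with Aqp2 in their list, had 10 tested loci and 0 calls in either direction. Aqp2, Aqp3, Aqp4, Avpr2 and Fxyd4 of that list had the higher value in males. Gata3, Hsd11b2, Scnn1a, Scnn1b and Scnn1g had it in females. Markers of proximal tubule, which belongs to the cortex and outer medulla, differed between the sexes. Their 14 loci found of 15 genes summed to 1096 FPKM in females and 185 in males, with 9 of 12 tested loci called higher in females and 1 in males. Kap, which codes for the kidney androgen-regulated protein, gave most of that sum with 910 FPKM in females and 131 in males. No marker of the list was at 0, and the lowest, Slc5a12 and Slc5a2, were under 1 FPKM in both sexes. Other lists moved as well, with 3 of 6 tested loci called higher in females both for urothelium, summing to 38.7 FPKM in females and 19.6 in males, and for interstitium, at 133 and 86.1. Endothelial markers summed to 326 and 189 FPKM with 1 of 5 called higher in females. The lists of urea transport, thick limb and leukocyte markers had 1 female call each. A list of clock genes went the other way, with 3 of 10 tested loci called higher in males and 0 in females.

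Most unnamed loci were short and low. Their median length was 1567 bases, with a range of 50 to 1321655, against 28530.5 bases for assembled loci with a symbol. The median level, the mean of both sexes, was 0.836 FPKM with quartiles of 0.0524 and 1.97, against a median of 8.59 for assembled loci with a symbol. In both sexes 2194 of them (18.96%) are listed at 0. A further 1166 (10.1%) were at 0 in 1 sex, against 1.69% of assembled loci with a symbol. At the other end, 5351 (46.2%) reached 1 FPKM, 669 reached 10 and 52 reached 100.

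Taken over all unnamed loci, level rose and then fell with the length of the listed interval. The 2999 loci under 500 bases had a median of 0.482 FPKM, and 28.6% of them were at 0 in both sexes. The median was 1.05 at 500 to under 2000 bases and 1.42 at 2000 to under 10000 bases. It was 0.877 at 10000 to under 50000 bases and 0.144 in the 2161 loci of 50000 bases or more. Among private loci alone the median rose in every class, from 0.482 FPKM under 500 bases through 1.06, 1.46 and 1.74 to 2.08. Among loci above 0 in both sexes it was 1.44 under 500 bases and 1.23 in the next class. Almost all short loci were at least 200 bases long, since 61 lay below that length, 974 fell at 200 to under 250 bases and 611 at 250 to under 300. Loci with a symbol also peaked at 2000 to under 10000 bases, at a median of 11.96 FPKM, and fell to 6.15 at 50000 bases or more.

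**Figure D1:**
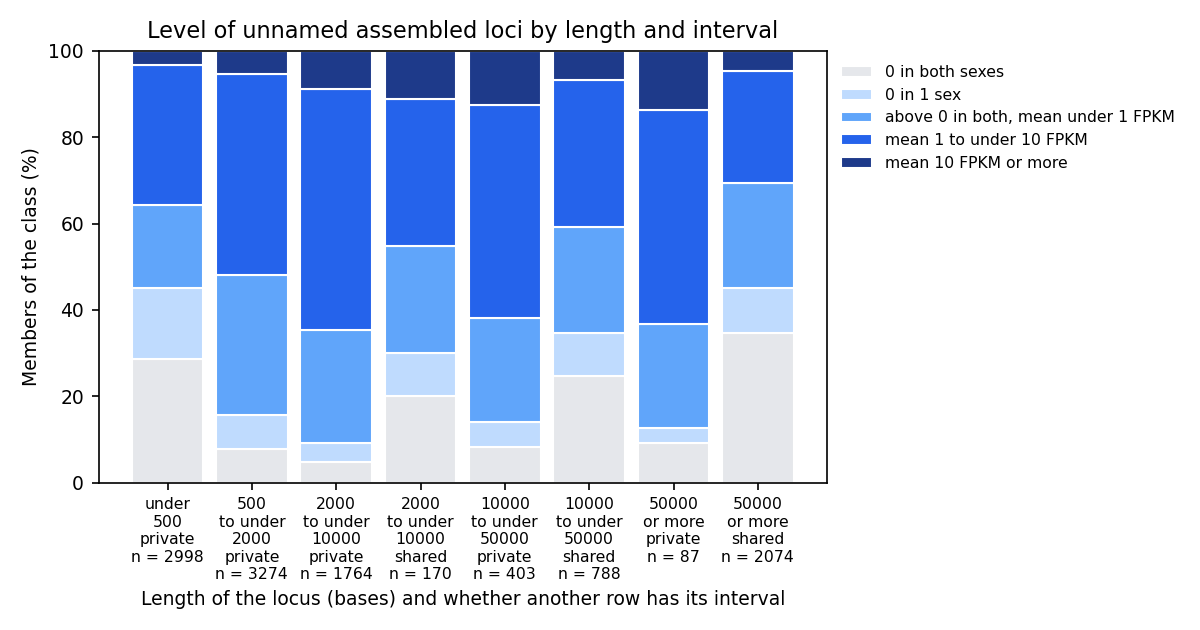
Share of unnamed loci (vertical axis, percent) in each class of level, by length of the locus in bases and by whether another row of the table has the identical interval; classes with fewer than 50 loci are left out. In the longest loci, 34.6% of those on a shared interval are at 0 in both sexes against 9.20% of those with an interval of their own.

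The low level of the long loci went with shared intervals. An interval was counted as shared where another row of the table has the identical chromosome, start and end, which held for 1 of 2999 loci under 500 bases, 15 of 3289 at 500 to under 2000, 170 of 1934 at 2000 to under 10000, 788 of 1191 at 10000 to under 50000 and 2074 of 2161 at 50000 or more. Among loci of 50000 bases or more, the 87 with a private interval had a median of 2.08 FPKM and the 2074 on a shared interval 0.125. At 10000 to under 50000 bases these medians were 1.74 and 0.510. Over all lengths, 8526 private loci had a median of 1.01 FPKM and 3048 shared ones 0.209. That difference lay in the rows at 0, since loci above 0 in both sexes had medians of 1.39 and 1.31. Among loci that the authors tested the order turned, with 1.55 FPKM for private and 1.71 for shared loci.

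Shared intervals mostly held a named gene as well. Of the 3048 unnamed loci on a shared interval, 2592 share it with a row that has a symbol and 456 with unnamed rows alone. The share at 0 in both sexes was 31.1% in the former and 32.5% in the latter. A case with high signal was MSTRG.6106, on the interval of Flt1 on chromosome 12 (rn5 11155071 to 11449809). Flt1 codes for a receptor of vascular endothelial growth factor. MSTRG.6106 had 42.7 FPKM in females and 47.8 in males, above Flt1 itself at 6.35 and 4.94, while MSTRG.6105 on the same interval had 0.288 and 0.596.

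The intervals with most unnamed loci were listed with little signal in most rows. The interval on chromosome 14 at 46697919 to 46861189 held 17 unnamed loci and no other row, of which 11 were at 0 in both sexes and the highest reached 74.7 FPKM. The interval on chromosome 6 at 38851092 to 39273404 held 16, of which 15 were at 0. The mitochondrial interval at 2739 to 14061 held 15 beside 5 rows with protein-coding symbols. All 15, and the 5 named rows as well, were at 0 with the status LOWDATA, under which no test was made. CYTB, next to that interval, had 11501 FPKM in females and 11424 in males. The zeros of the interval therefore do not show that RNA was absent. The longest tested loci were 4 rows of chromosome 2, MSTRG.12999, MSTRG.13000, MSTRG.13001 and MSTRG.13003, which share 128819633 to 130141287. Their levels ranged from 0.0611 to 5.49 FPKM in females and from 0.478 to 9.30 in males, with MSTRG.13001 the highest in both.

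Level fell with distance from named loci. The median distance to the nearest locus with a symbol was 2671.5 bases, and 64.2% of unnamed loci lay within 10000 bases of one. Among private loci the median was 1.57 FPKM at 1 to 1000 bases, 1.12 beyond that up to 10000 bases, 0.685 up to 100000 and 0.134 farther away. The share at 0 in both sexes rose over the same classes, from 5.82% to 31.1%. Median length was lower too, at 1053 bases in the nearest class and 592 in the farthest. The parts of length and distance in the fall were not separated. Strand use in the authors' counting is not given in the sources used here, so a locus close to a gene cannot be told apart from an extension or an antisense transcript of it.

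**Figure D2:**
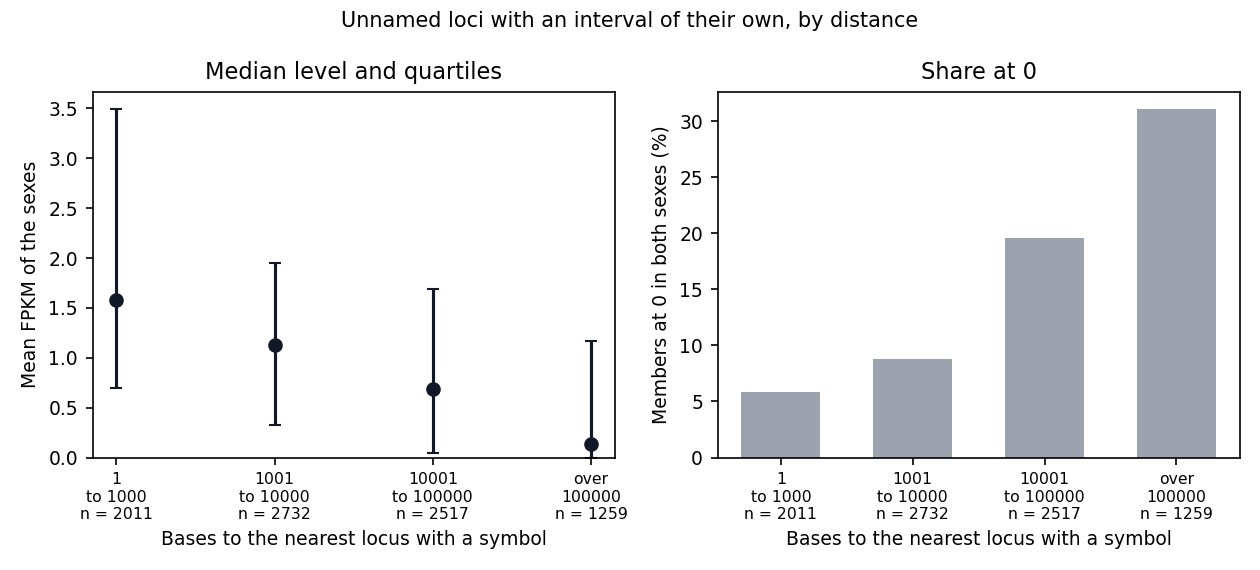
Level of unnamed loci with an interval of their own (left, mean FPKM of the sexes, median with lower and upper quartile) and their share at 0 in both sexes (right, percent), by distance in bases to the nearest locus with a symbol. The median falls from 1.57 to 0.134 FPKM from the nearest to the farthest class.

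The highest levels were on the mitochondrial chromosome and at a few nuclear loci. MSTRG.25540, at 67 to 1025 of the mitochondrial chromosome, had 1337 FPKM in females and 1837 in males. MSTRG.25567 and MSTRG.25564, of 69 and 70 bases on the same chromosome, had 353 and 1327 FPKM in females and 1491 and 502 in males. The sexes lay apart in opposite directions at these very short loci, and neither was called (q of 0.982 and 0.999 from the authors' deposited table). MSTRG.25567 was also the shortest tested locus in the set. MSTRG.25780, on the interval of Gpm6b on the X chromosome, was listed at 0 in females but at 1559 FPKM in males, without a call (q of 0.826 from the authors' deposited table).

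Flanking genes gave some of the high nuclear loci a place in a later annotation. For 8948 unnamed loci, the nearest symbols on both sides were matched to RefSeq genes of assembly GRCr8 with at most 10 RefSeq genes between them. This step uses the order of genes alone and no position of that assembly. Symbols of the deposited table stood on the same chromosome in both for 98.7% of 15534 matched symbols. At 1979 loci exactly 1 protein-coding RefSeq gene between the flanks had no row on that chromosome under its symbol or a listed synonym. A gene that has a row under another older name can be among them. In 184 of these the length of the locus was 0.8 to 1.25 times that of the RefSeq gene. Of the 184, 53 are on a shared interval, where the length compared is that of the common interval. This rule was set after the values had been seen, the sequences were not compared, and other genes between the same flanks remain possible.

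Several of those 184 loci were among the most abundant RNAs without a name. MSTRG.5105 (chromosome 10, 104306363 to 104311283) had 1222 FPKM in females and 1199 in males. It lies between Kctd2 and Cdr2l, where RefSeq lists Atp5pd, a subunit of mitochondrial ATP synthase. Its length of 4921 bases stands beside 5254 for Atp5pd. The deposited table gives Atp5h, the older symbol of that gene, to a locus of 597 bases on chromosome 16 at 1.77 and 2.22 FPKM.

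Ribosomal and SUMO genes showed the same arrangement. MSTRG.25979 (X chromosome, 72916123 to 72920450) had 1085 FPKM in females and 1069 in males between Ercc6l and Cited1. RefSeq lists Rps4x there, a protein of the small ribosomal subunit, at 4444 bases against 4328 for the locus. In the deposited table the symbol Rps4x stands on a locus of 793 bases on chromosome 4 with 30.1 and 28.9 FPKM. MSTRG.5096 (chromosome 10, 104184308 to 104195581) had 471 and 500 FPKM between Nup85 and Nt5c, where RefSeq lists Sumo2, a small protein that is attached to other proteins. The locus with that symbol, of 592 bases on chromosome 5, is listed at 0 in both sexes. MSTRG.247, between Lpcat1 and Irx4, had 76.9 and 69.7 FPKM, and RefSeq lists Ndufs6 there, a subunit of respiratory complex I, whose symbol stands on a locus of 416 bases on chromosome 2 at 0 in both sexes.

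The pattern did not hold at every such locus. A symbol on another chromosome was found for 13 of the 184 loci, and the unnamed locus was the higher in 6 of them. At Tmem258, for example, MSTRG.2678 had 4.81 FPKM in females and 4.55 in males, and the row with that symbol had 92.3 and 92.5. Older symbols can also belong to another gene, so some of the 13 pairs may be mismatched.

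For most of the 184 loci the deposited table has no row with the RefSeq symbol or a listed synonym. MSTRG.14113, where RefSeq lists Selenof, a protein of the endoplasmic reticulum, had 223 FPKM in females and 232 in males. MSTRG.20950, at the place of Gpx2, a glutathione peroxidase gene, had 138 and 128 FPKM. MSTRG.19267, at the place of Dio1, an enzyme that activates thyroid hormone, had 15.3 and 11.5. These 3 loci had lengths of 1.00 to 1.07 times that of the RefSeq gene, and none was called. MSTRG.2931, between Stambpl1 and Fas where RefSeq lists Acta2, the smooth muscle actin, had 13.0 FPKM in females and 8.37 in males (q of 0.134 from the authors' deposited table). Of the 184 loci, 7 were called, beside 2.34% of all tested loci. In all, 33 of the 184 loci reached 10 FPKM, with a median over the 184 of 1.28 FPKM. The other 1795 loci, of unlike length, had a median of 0.822, and 97 of them reached 10 FPKM.

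**Figure D3:**
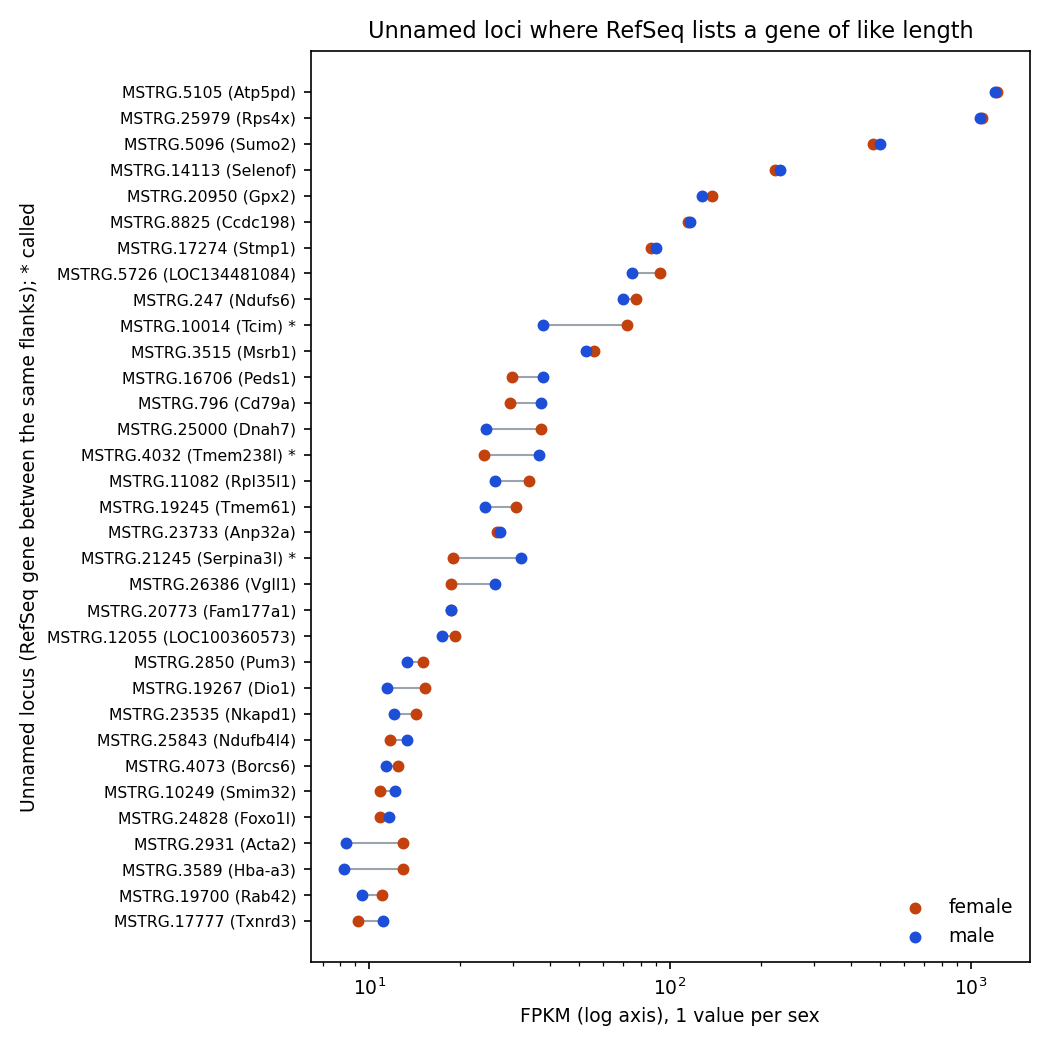
FPKM in females and males (log axis, 1 value per sex) of the 33 unnamed loci of at least 10 FPKM whose flanks enclose 1 RefSeq protein-coding gene of like length. That gene has no row on that chromosome under its symbol or a listed synonym. The RefSeq symbol stands in brackets and a star marks a called locus. The sexes lie close together at most loci, and 3 of the 33 are called, beside 2.34% of all tested loci. The latter include loci of lower level, and the share at a like level was not computed.

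Some high loci stood where RefSeq lists other kinds of gene, or could not be placed. MSTRG.2511 and MSTRG.2513, on chromosome 1 at 228084137 to 228091199 and at 228131946 to 228137333, had 538 and 576 FPKM in females and 579 and 523 in males. RefSeq lists the long noncoding RNA genes LOC120097382 and LOC120097381 between their flanks, Ltbp3 and Frmd8. MSTRG.23387 (chromosome 8, 43478237 to 43480374), 21348 bases from the olfactory receptor gene Olr1315, had 598 and 707 FPKM, and its flanks were not matched to RefSeq.

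With calls at 0 in 1 sex included, the called share of unnamed loci was close to that of the whole table. The counts in each direction were similar. The authors tested 7197 of the 11574 loci and left 4377 without a test. Of the tested loci, 142 (1.97%) were called, against 2.34% of all tested loci. In females 74 were higher and in males 68, which is 1.03% and 0.945% of the tested loci against 1.63% and 0.719% over the whole table. Of tested loci with a symbol, 2.56% were called, 1.96% higher in females and 0.598% higher in males. Calls at 0 in 1 sex made up 64 of the 142, against 67 of the 476 calls of the whole table. Above 0 in both sexes the unnamed loci had the lower share called, at 78 of 6949 tested. The whole table had 20037 such tested loci, with all its calls but those 67. Females were higher in 52.1% of the called unnamed loci and in 76.6% of the 334 called loci with a symbol. On the log2 scale, female over male FPKM had a median of -0.01 over the 8214 unnamed loci above 0 in both sexes.

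**Figure D4:**
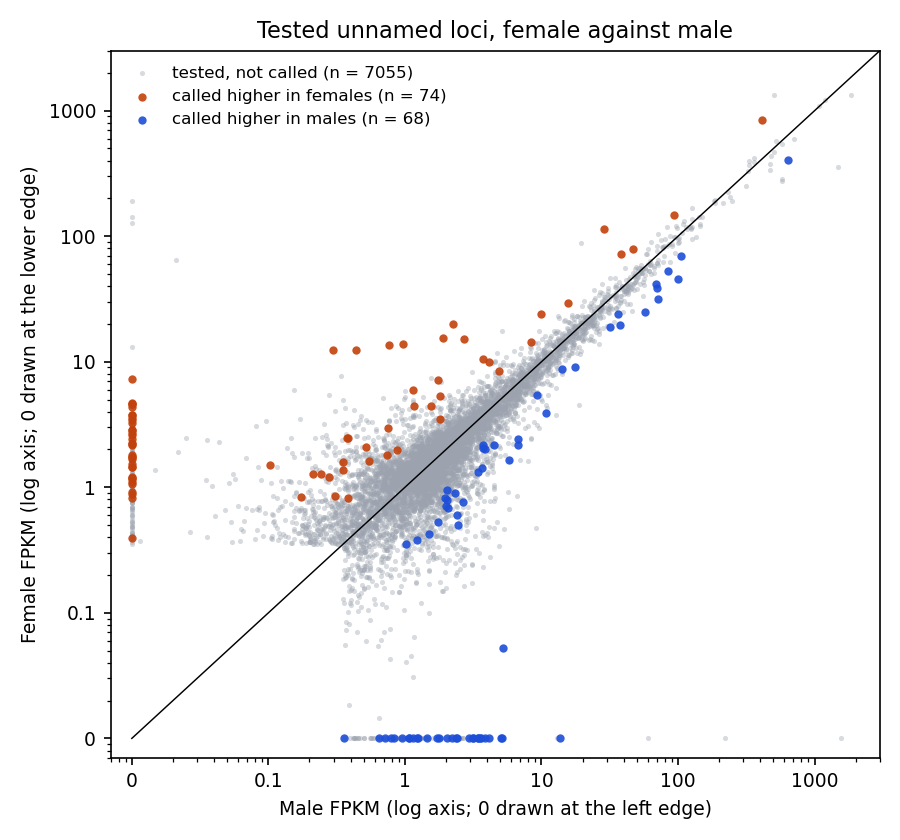
Female against male FPKM of the 7197 tested unnamed loci (log axes, with 0 drawn at the left and lower edges); each point is a locus, the line marks equal values, and colours mark the loci called in either direction. Many called loci sit on the edges, at 0 in 1 sex.

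A large share of the calls were loci listed at 0 in 1 sex. Of the 142 called loci, 64 (45.1%) were listed at 0 in the other sex, 34 of them with signal in females and 30 with signal in males. Among called loci with a symbol this held for 3 of 334 (0.898%). The 64 loci were short, with a median length of 287.5 bases, and 46 of them (71.9%) were under 500 bases. Their level in the sex with signal was 0.355 to 13.6 FPKM with a median of 2.18. The 78 called loci above 0 in both sexes had a median length of 3372.5 bases, and 2 of them were under 500 bases.

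Their level differed between length classes. The 21 of 200 to under 250 bases had 2.36 to 5.15 FPKM with a median of 3.54, and the 13 of 250 to under 300 bases had 1.69 to 13.6 with a median of 2.27. The 5 of 300 to under 400 bases had 1.06 to 1.74 with a median of 1.46, and the 7 of 400 to under 500 bases had 0.714 to 2.59 with a median of 1.07. The 18 of 500 bases or more had 0.355 to 2.43 with a median of 1.12, so the median did not fall further there. The highest with signal in females were MSTRG.8647 on chromosome 15 at 7.30 FPKM, MSTRG.5008 on chromosome 10 at 4.71, MSTRG.8157 on chromosome 14 at 4.60, MSTRG.16279 on chromosome 3 at 4.57 and MSTRG.2115 on chromosome 1 at 4.40. All 5 were 201 to 261 bases long and at 0 in males. The highest with signal in males were MSTRG.12849 on chromosome 2 at 13.6 FPKM, MSTRG.19622 on chromosome 5 at 5.15, MSTRG.10474 on chromosome 17 at 5.07, MSTRG.2127 on chromosome 1 at 4.15 and MSTRG.3590 on chromosome 10 at 3.86. These were 206 to 256 bases long and at 0 in females. A value of 0 allows no fold, and the number of reads behind these values is not given in the table. Not every locus of this kind was called, since 184 tested loci at 0 in 1 sex did not pass.

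**Figure D5:**
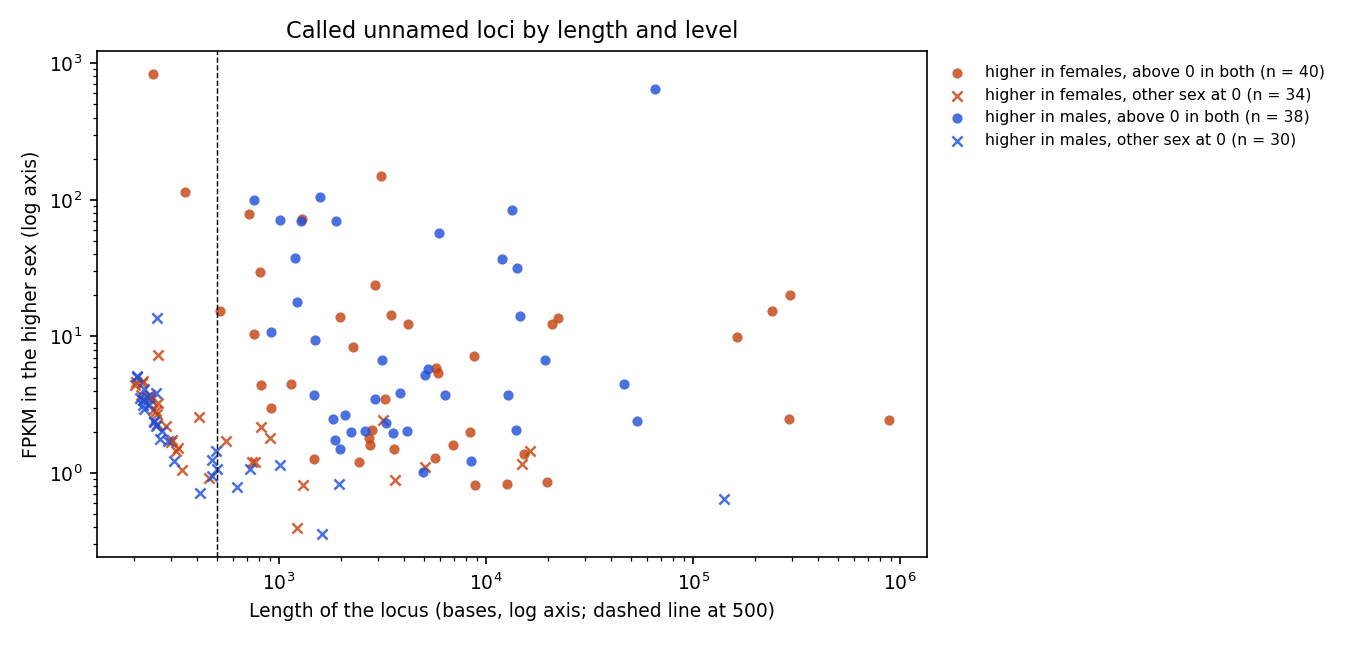
FPKM in the higher sex against the length of the locus (log axes) for the 142 called unnamed loci; crosses are loci at 0 in the other sex and circles are loci above 0 in both, with 500 bases marked by the dashed line. The crosses crowd at lengths under 500 bases, where 46 of 64 lie.

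Over the whole table, 330 loci were called higher in females, 37 of them at 0 in males. Of the 6949 tested unnamed loci above 0 in both sexes, 40 were called higher in females, by 1.58- to 41.6-fold with a median of 3.94-fold. MSTRG.12786 (chromosome 2, 75933648 to 75937835) had 12.4 FPKM in females against 0.297 in males, 41.6-fold more (q of 0.00391 from the authors' deposited table). It lies 30195 bases from Osmr, the oncostatin M receptor gene, itself called higher in females at 2.89 and 1.58 FPKM. MSTRG.14189 (chromosome 2, 278977868 to 278998570), between Acadm and Slc44a5, had 12.4 and 0.440 FPKM, 28.2-fold (q of 0.0193 from the authors' deposited table). Acadm codes for a mitochondrial enzyme of fatty acid oxidation.

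Further large female differences had neighbours of various kinds. MSTRG.9783 (chromosome 16, 32492681 to 32514808), 27711 bases from the locus with Aadat, an aminotransferase of lysine breakdown, had 13.6 FPKM in females and 0.764 in males, 17.7-fold. MSTRG.7914 (chromosome 14, 22799634 to 22801606) had 13.8 and 0.960 FPKM, 14.4-fold. Its matched flanks were Ugt2b10 and Ythdc1, between which RefSeq lists the coding gene Ugt2b34l1 and pseudogenes. The nearest symbol in the deposited table, at 10374 bases, was Ly6c, of the Ly6 family, with 81.2 and 59.6 FPKM and no call. RefSeq lists Ly6c on chromosome 7 instead, between Ly6e and Ly6al. MSTRG.9783 and MSTRG.7914 each had a q of 0.00391 in the authors' deposited table. MSTRG.24527 shares the interval of Sult1c2, a sulfotransferase, on chromosome 9 and had 15.3 and 2.70 FPKM, 5.66-fold. The row of Sult1c2 with more signal had 7.62 and 1.88 and was not called (q of 0.0776 from the authors' deposited table). MSTRG.11081, a locus of 516 bases on chromosome 18, had 15.4 and 1.89 FPKM, 8.18-fold. The 3 remaining of the 10 largest ratios at a mean of at least 1 FPKM, at MSTRG.8828, MSTRG.13548 and MSTRG.2607, lay between 5.12- and 6.55-fold. Below that mean, MSTRG.21930 on chromosome 7 had 1.51 and 0.103 FPKM, 14.6-fold.

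The largest level among the female calls belonged to a very short locus. MSTRG.8609 (chromosome 15, 3621007 to 3621253), of 247 bases, had 836 FPKM in females and 413 in males, 2.02-fold (q of 0.00391 from the authors' deposited table). It lies 299 bases from Plau, the urokinase plasminogen activator gene, which was higher in females too at 147 and 82.9 FPKM. MSTRG.10020, 60 bases from Sfrp1, a secreted Wnt-binding protein, had 23.9 and 9.89 FPKM, and Sfrp1 itself had 8.14 and 3.18 and was called. MSTRG.24742, 105 bases from Mep1a, a brush border metalloprotease, had 1.28 and 0.210 FPKM beside 11.1 and 2.19 for Mep1a, and MSTRG.18630, 530 bases from the amino acid transporter gene Slc7a13, had 4.47 and 1.56 beside 101 and 46.3. The unnamed locus and its neighbour were both higher in females in each of these 4 pairs, which were chosen after their values had been seen.

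At Slc7a12, an amino acid transporter gene and one of the proximal tubule markers, unnamed loci went in both directions. Slc7a12 had 92.7 FPKM in females and 9.70 in males. MSTRG.12919, on its identical interval (chromosome 2, 108221926 to 108514375), had 19.9 and 2.25 FPKM, 8.84-fold higher in females (q of 0.00391 from the authors' deposited table). MSTRG.12917 on the same interval had 1.13 and 1.23 FPKM and was not called. MSTRG.12921, which starts 2626 bases beyond the interval, had 2.44 FPKM in females against 6.72 in males and was called higher in males (q of 0.00391 from the authors' deposited table). It was the only called unnamed locus whose nearest named locus was called in the opposite direction.

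A second female call lay between the flanks of a proximal tubule marker without a row. Lrp2, which codes for megalin, the endocytic receptor of the proximal tubule, was the 1 gene of 15 in that list not found by symbol. MSTRG.15564 (chromosome 3, 62271270 to 62434989) lies between Dhrs9 and Bbs5, where RefSeq lists Lrp2. The interval is shared with a row that has the symbol 5S_rRNA and is listed at 0 in both sexes. Its 163720 bases, the span of the common interval, stand beside 157388 for Lrp2, and the sequences were not compared. MSTRG.15564 had 9.91 FPKM in females and 4.10 in males, 2.42-fold (q of 0.00391 from the authors' deposited table). Cubn, whose product binds megalin, was also higher in females, at 2.40 and 0.344 FPKM. The part of the higher proximal tubule, urothelial, interstitial and endothelial sums in females in the differences at MSTRG.12919, MSTRG.15564 and the other female calls was not tested. Between Ido2 and Zmat4, MSTRG.10014 (chromosome 16, 72046930 to 72048223) had 71.7 and 37.9 FPKM (q of 0.00391 from the authors' deposited table), and RefSeq lists Tcim there with the same length of 1294 bases.

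Over the whole table, 146 loci were called higher in males, 30 of them at 0 in females. Of the 6949 tested unnamed loci above 0 in both sexes, 38 were called higher in males, by 1.51- to 98.9-fold with a median of 2.33-fold. The largest ratio was at MSTRG.255 (chromosome 1, 35676120 to 35681210), with 0.0528 FPKM in females and 5.22 in males, and its call was close to the threshold (q of 0.0456 from the authors' deposited table). It lies 350396 bases from Irx1, a homeobox gene. The next ratio was 4.90-fold, at MSTRG.24033 on chromosome 8 with 0.504 and 2.47 FPKM, and MSTRG.25182 on chromosome 9 followed at 3.98-fold with 0.606 and 2.42 FPKM. Among loci with a mean of at least 1 FPKM, those 2 ratios lie below the smallest of the 10 largest female ratios, 5.12-fold. By level, the highest male call was MSTRG.75 (chromosome 1, 13497172 to 13562339), which shares its interval with other rows and had 404 FPKM in females against 642 in males, 1.59-fold (q of 0.0173 from the authors' deposited table).

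Of the 68 male calls, 3 had a nearest named locus called higher in males, where 0.598% of tested loci with a symbol were. The pairs given next were in part chosen after their values had been seen. MSTRG.22505 (chromosome 7, 116441572 to 116444722) had 2.18 FPKM in females and 6.75 in males, 5020 bases from Ly6al, a gene of the Ly6 family, at 395 and 814 FPKM. Both were called (q of 0.00391 for each from the authors' deposited table). MSTRG.1344, 15119 bases from Aldh1a3, an enzyme that makes retinoic acid, had 19.6 and 37.8 FPKM, and Aldh1a3 was called at 79.2 and 129. MSTRG.15863, 756 bases from Elf5, a transcription factor gene, had 41.6 and 69.5 FPKM, while Elf5 with 74.1 and 109 was not called (q of 0.0617 from the authors' deposited table). MSTRG.15882 lies 2024 bases from Depdc7 and had 0.766 and 2.68 FPKM, beside 24.3 and 36.2 for Depdc7, which was not called (q of 0.0530 from the authors' deposited table).

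The other male loci with large ratios stood apart from called genes. MSTRG.20956 on chromosome 6 had 1.65 and 5.74 FPKM, MSTRG.6394 on chromosome 12 had 0.713 and 2.01, and MSTRG.4375, on the interval of the amino acid oxidase gene Pipox, had 0.679 and 2.06. MSTRG.24750 had 3.87 and 10.7 FPKM, 1212 bases from Gpr110, an adhesion receptor gene at 31.3 and 41.0 that was not called. MSTRG.11414 on chromosome 18 had 0.527 and 1.76 FPKM between Csnk1a1 and Mir145. RefSeq lists the long noncoding RNA gene Carmn between those flanks. MSTRG.2842 and MSTRG.2843 on chromosome 1, 2171 bases apart with the former 13747 bases from Kank1, had 1.32 and 1.43 FPKM in females and 3.46 and 3.70 in males, and both were called.

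Beside Aqp2, the table held an unnamed locus with a sex difference. MSTRG.26223, of 758 bases at 3270 bases from the Aqp2 locus and 2366 from Aqp5, had 45.6 FPKM in females and 99.2 in males, 2.18-fold (q of 0.00391 from the authors' deposited table). Aqp2 itself was not called at 8463 and 11693 FPKM (q of 0.923 from the authors' deposited table). The deposited table places this stretch on the X chromosome, at 115750617 to 115751374 for the locus, whereas RefSeq GRCr8 lists Aqp2 on chromosome 7. The X chromosome held 353 unnamed loci, of which 221 were tested and 3 called (1.36%), against 2.34% of all tested loci.

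Pairs of an unnamed and a named locus were compared where they lay close together. In 1429 pairs within 1000 bases with both tested, the log2 ratios of female to male had a Spearman rho of 0.293 and a Pearson r of 0.294 across loci, and 60.2% of pairs had the same sign. Both values of a pair come from the same libraries, the loci are not independent, and no value for distant pairs was computed, so these figures are a description. The unnamed locus was the lower in 70.5% of pairs, with medians of 2.11 and 11.7 FPKM. In 26 pairs the named neighbour was called, the unnamed locus had the same direction in 22, and it was itself called in 5, where 1.97% of tested unnamed loci and 2.34% of all tested loci were called. Of the 142 called loci, 10 had a nearest named locus called in the same direction, 7 in females and 3 in males.

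Some unnamed loci had the interval of a marker gene or one that overlapped it. By identical or overlapping intervals, 34 unnamed loci touched a gene of 11 lists of kidney cell markers, clock genes and long noncoding RNAs, of which 73 genes had a row. Of these 34 loci, 11 were tested and MSTRG.12919 was the only one called, beside 2.34% of all tested loci. The proximal tubule list had 14 of them, of which 2 were tested. The leukocyte list had 8, the interstitial list 4, the intercalated cell list 3, the endothelial list 2 and the lists of urea transport, thick limb and clock genes 1 each. The principal cell and urothelium lists had none. None of the 9 long noncoding RNA genes with a common name, such as Malat1 and Neat1, had a row under its symbol.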

How the data were processed

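Per the labels' protocols, tissue was flash frozen, RNA was taken up in Trizol, and a kit for stranded total RNA gave the libraries. Listed in the submitters' processing notes are TopHat2 2.1.1, Cufflinks 2.2.1, StringTie, FastQC, cutadapt and build rn5, with no role or order. Per the file headers, the deposited table has 1 value per locus and sex, read as FPKM since no header gives the unit, and the authors' own p-value and q-value. The authors also deposited the count of read pairs per library. A second deposited table repeats 8418 rows of the main one, all with equal values, and was not used.

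From these, lengths, shared intervals, distances and medians were computed with Python 3.11.15, pandas 2.3.3 and numpy 2.4.6, and the interval functions were checked on simulated intervals. Since each sex has 1 value, no counting interval can be set, and no test beyond the authors' was made. Unnamed loci named in the text were the 10 of highest level, the 10 called loci of largest ratio each way (above 0 in both sexes, with a mean of 1 FPKM or more), the 5 called loci of highest level at 0 in the other sex in each direction, the longest and the shortest tested, the 3 intervals that hold most unnamed loci, and called loci on marker genes. Other loci named were chosen after their values had been seen. The set of loci and the gene lists were chosen with earlier results of these data known. Genes between flanks come from the RefSeq table of assembly GRCr8, which gave names, lengths and order only. Groups were taken from the sample titles.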

Additional observations from a re-analysis of the deposited data

How the results depend on the processing

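Of 38 alternatives, 24 stayed within 1.5 times the reported count or level, or within 0.1 of the reported log2 value, and 14 did not. The number of loci called higher in females (74) became 49 with mean FPKM of at least 1 and 40 with values above 0 in both sexes. The number called higher in males (68) became 40 at a q under 0.01, 38 with values above 0 in both sexes and 44 with lengths of at least 500 bases, the last an alternative chosen after the data were seen. With loci tested by the authors, the medians of private and shared loci became 1.55 and 1.71 FPKM, and with values above 0 in both sexes the shared median became 1.31. With values above 0 in both sexes, the medians were 1.44 FPKM under 500 bases, 1.74 at 10000 to under 50000 and 1.25 at 50000 or more, and with private intervals they were 1.74 and 2.08 in the latter 2 classes. The number of loci beside marker genes rose from 34 to 77 within 10000 bases. These shifts follow from the loci each alternative leaves out or adds. Centring on the median of all tested loci, -0.00479 on the log2 scale, changed no direction. It could change none, since called loci above 0 in both sexes differed by at least 1.51-fold. Leaving out mitochondrial loci or adding Ensembl rows without a symbol could not change the counts either, since none of those was called. Taking 1 locus per interval gave 74 and 67 calls. No paired analysis was possible because the table gives 1 value per sex and no column per pool, and leaving out each pool was not run for the same reason. The deposited p-values have a floor of 5e-05, at which 73 of the 142 calls stand, so these cannot be ranked by q. Depth per locus is unknown.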
